A study of Mus musculus with 5 samples.

Results

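The circadian clock genes described here are 10 genes of the molecular clock: the activators *Arntl* (BMAL1), *Clock* and *Npas2*, the repressors *Per1*, *Per2*, *Per3*, *Cry1* and *Cry2*, and the output factors *Dbp* and *Tef*. They were taken by name, and each gene was represented by its brightest array row that carries its symbol alone. Of the 10 genes, 9 had such a row, among 18820 genes in all, and *Dbp* had none. Liver RNA was measured on Affymetrix Mouse Gene 1.1 ST arrays, 1 array per mouse, in adult C57BL/6 mice. The treated group was 3 mice injected subcutaneously with CSF1-Fc, pig colony-stimulating factor 1 (the growth factor of macrophages) fused to part of pig IgG1a to prolong its circulation. The controls were 2 mice injected in the same way with phosphate-buffered saline (PBS). Injections were given on 4 consecutive days and the livers were taken on day 5. The labels and methods give neither the clock time of the cull nor the lighting or feeding state, and the labels do not give the sex of each mouse.

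Almost every mouse cell keeps daily time with a loop of transcription. BMAL1 pairs with CLOCK, or with its relative NPAS2, and the pair binds E-box sequences and switches on the *Per*, *Cry*, *Dbp* and *Nr1d1* genes. PER and CRY proteins then return to the nucleus and hold the pair back. In a linked loop, REV-ERB proteins (*Nr1d1*, *Nr1d2*) repress and ROR proteins (such as *Rora*) activate *Arntl* through ROR elements. DBP, TEF and HLF activate genes that carry D-boxes, which NFIL3 represses. In the liver these factors drive daily rhythms of metabolic enzymes, and *Arntl* and *Npas2* messages peak at about the opposite phase of the day to those of *Dbp*, *Per1* and *Per3*.

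The sites through which these loops act can be read in the promoters of the genes that the results turn on. RefSeq promoter windows (mouse build GRCm38.p6, 250 bases before to 50 bases after a transcription start) were found for 9 of the 10 genes, 14 windows in all, and *Per2* had none in the table used. The windows of *Arntl*, *Nfil3*, *Per1*, *Per3*, *Cry1* and *Ciart* (a repressor of the CLOCK and BMAL1 pair) are printed below 5′ to 3′ on the gene's own strand, because they hold the motif types of the loops described here. Capitals mark every motif found.
Arntl promoter, chr7:113207261-113207560, plus strand: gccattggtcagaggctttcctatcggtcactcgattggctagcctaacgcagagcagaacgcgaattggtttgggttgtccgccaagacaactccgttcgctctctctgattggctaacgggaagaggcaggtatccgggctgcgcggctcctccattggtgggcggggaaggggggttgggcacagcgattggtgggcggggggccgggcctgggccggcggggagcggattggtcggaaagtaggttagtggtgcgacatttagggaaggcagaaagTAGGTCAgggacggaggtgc
Nfil3 promoter, chr13:52980990-52981289, minus strand: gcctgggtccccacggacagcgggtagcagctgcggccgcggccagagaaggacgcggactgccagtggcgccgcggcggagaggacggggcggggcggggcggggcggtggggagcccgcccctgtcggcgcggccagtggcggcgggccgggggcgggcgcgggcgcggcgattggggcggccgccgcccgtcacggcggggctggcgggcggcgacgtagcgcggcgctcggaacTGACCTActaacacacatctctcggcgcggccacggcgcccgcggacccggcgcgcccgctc
Per1 promoter, chr11:69098699-69098998, plus strand: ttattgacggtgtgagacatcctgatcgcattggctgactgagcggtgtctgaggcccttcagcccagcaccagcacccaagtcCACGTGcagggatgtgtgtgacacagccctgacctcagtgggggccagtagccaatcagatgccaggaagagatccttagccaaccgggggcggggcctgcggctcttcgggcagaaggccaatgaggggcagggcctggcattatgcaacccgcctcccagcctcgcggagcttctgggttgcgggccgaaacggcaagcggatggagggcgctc
Per3 promoter, chr4:151044616-151044915, minus strand: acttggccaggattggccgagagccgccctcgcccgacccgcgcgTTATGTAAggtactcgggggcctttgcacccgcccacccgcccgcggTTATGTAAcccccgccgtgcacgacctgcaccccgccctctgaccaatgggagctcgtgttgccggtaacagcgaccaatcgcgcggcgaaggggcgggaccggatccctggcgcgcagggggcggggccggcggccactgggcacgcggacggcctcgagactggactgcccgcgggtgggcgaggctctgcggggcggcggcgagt
Cry1 promoter, chr10:85185005-85185304, minus strand: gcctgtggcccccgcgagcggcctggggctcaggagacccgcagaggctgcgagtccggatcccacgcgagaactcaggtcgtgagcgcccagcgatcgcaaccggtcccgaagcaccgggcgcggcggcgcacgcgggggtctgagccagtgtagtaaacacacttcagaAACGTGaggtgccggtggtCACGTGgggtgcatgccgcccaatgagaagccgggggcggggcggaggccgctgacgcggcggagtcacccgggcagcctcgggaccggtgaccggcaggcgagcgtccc
Ciart promoter, chr3:95882179-95882478, minus strand: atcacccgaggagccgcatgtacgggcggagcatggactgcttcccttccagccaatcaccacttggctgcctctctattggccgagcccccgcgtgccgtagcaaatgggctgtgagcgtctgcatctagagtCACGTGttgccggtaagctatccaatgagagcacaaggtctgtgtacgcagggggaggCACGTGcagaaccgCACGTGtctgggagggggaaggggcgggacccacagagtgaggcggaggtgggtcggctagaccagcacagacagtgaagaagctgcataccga

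Both strands of each window were searched for the E-box CACGTG, the E′-box CACGTT, the D-boxes TTATGTAA and TTACGTAA, the ROR elements TAGGTCA and TGGGTCA and the cAMP response element (CRE) TGACGTCA. The *Arntl* window held a ROR element whose first base lies at position 31 from the start, and the *Nfil3* window held one on the opposite strand, at position -12. *Per1* held an E-box at position -166. *Ciart* held 3 E-boxes, at positions -116, -58 and -44. The *Cry1* window held an E-box at position -60 and an E′-box, on the opposite strand, at position -79. *Per3* held 2 D-boxes, at positions -205 and -158. Of the members' windows not printed, that of *Cry2* held an E′-box and both of *Tef* an E-box, while those of *Npas2*, *Clock* and *Dbp*, and the other windows of *Arntl* and *Per1*, held none of these letters. Among the other partners, *Bhlhe41* held an E-box, *Nr1d1* and 1 window of *Rorb* an E′-box and *Hlf* a CRE. Among all 32851 windows of the table, 7.15% held an E-box, 4.68% an E′-box, 1.06% a D-box, 6.45% a ROR element and 1.79% a cAMP response element. These matches are letters in short windows and are not measured binding sites, and a window without a match says only that the letters are not there.

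**Figure D1:**
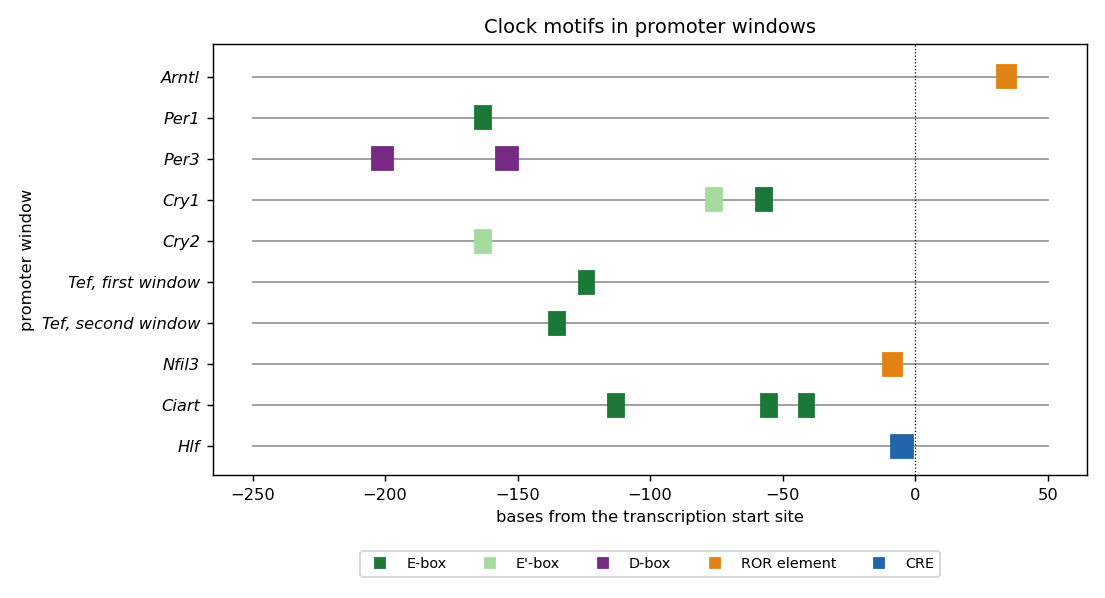
Positions of the 5 motif types in the promoter windows of clock genes, *Nfil3*, *Ciart* and *Hlf* that hold a motif, on an axis of bases from the transcription start. Each row is 1 window and each marker 1 motif, with *Per3* holding 2 D-boxes, *Ciart* 3 E-boxes and *Arntl* and *Nfil3* a ROR element each.

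The question of the comparison was whether the level of clock messages in the liver differed between CSF1-Fc and PBS mice at the single time sampled. *Npas2* fell after CSF1-Fc, and no other member passed the test in either direction. The 3 activators nevertheless all lay below both PBS livers in all 3 CSF1-Fc livers, as did *Cry1* and *Cry2*, while *Per3* lay above both in all 3. *Per1*, *Per2* and *Tef* overlapped between the groups. All p-values are from limma on log2 intensities with Benjamini-Hochberg adjustment over 35556 rows, and a gene was called at an adjusted p under 0.05.

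Of the 9 members measured, 1 was lower, 0 were higher and 8 did not pass. Over all 18820 genes, 3.95% were lower and 8.34% were higher by the same rule. Without adjustment, at p under 0.05, 5 of the 9 were lower and 1 was higher, against 14.5% and 13.2% of all genes. The groups did not overlap for 6 members. In 5 of them every CSF1-Fc value was under both PBS values, as in 29.3% of all genes, and in 1 every CSF1-Fc value was over both, as in 18.2% of all genes. The median log2 fold change (CSF1-Fc minus PBS throughout) was -0.50 over the 9 members and -0.08 over all genes. With 3 mice against 2, an exact two-sided permutation test cannot go below 0.1. The limma test used for the calls also draws on the spread of the other rows.

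Each of the 3 activators had lower values in the CSF1-Fc livers than in the PBS livers, and the difference passed the test for *Npas2* alone. *Npas2*, the partner that can stand in for CLOCK, had log2 intensities of 6.24, 5.25 and 5.86 in the CSF1-Fc livers, against 7.08 and 7.01 in the PBS livers. The lowest PBS liver was thus well above the highest CSF1-Fc liver, and the CSF1-Fc livers were widely spread among themselves. The means were 5.78 ± 0.50 in CSF1-Fc livers (SD, n = 3) and 7.04 ± 0.04 in PBS livers (SD, n = 2), a log2 fold change of -1.26 (SE 0.28, 95% interval -1.95 to -0.58, limma adjusted p = 0.045), or a level 2.40-fold lower. That call was close to the threshold: without CSF1-Fc replicate 3 the limma adjusted p was 0.0737, without PBS replicate 1 it was 0.196 and without PBS replicate 2 it was 0.208.

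*Arntl*, which encodes BMAL1, the partner that CLOCK and NPAS2 both need, measured 7.20, 6.23 and 6.82 in CSF1-Fc livers, against 7.64 and 7.78 in PBS livers. No CSF1-Fc liver reached the PBS values. The means were 6.75 ± 0.48 (SD, n = 3) after CSF1-Fc and 7.71 ± 0.10 (SD, n = 2) after PBS, and the log2 fold change of -0.96 (SE 0.28, 95% interval -1.63 to -0.29) missed the threshold (limma adjusted p = 0.0947). *Clock* measured 9.17, 8.94 and 9.35 in CSF1-Fc livers, against 9.73 and 9.84 in PBS livers. Its groups also did not overlap, with a log2 fold change of -0.63 (SE 0.16, limma adjusted p = 0.0674). Without CSF1-Fc replicate 3 *Clock* passed (limma adjusted p = 0.0432), but without CSF1-Fc replicate 1 or 2 it did not (0.184 and 0.108). Its log2 fold change was -0.68 without PBS replicate 1 and -0.57 without PBS replicate 2. In all 3 activators CSF1-Fc replicate 2 was the lowest liver.

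**Figure D2:**
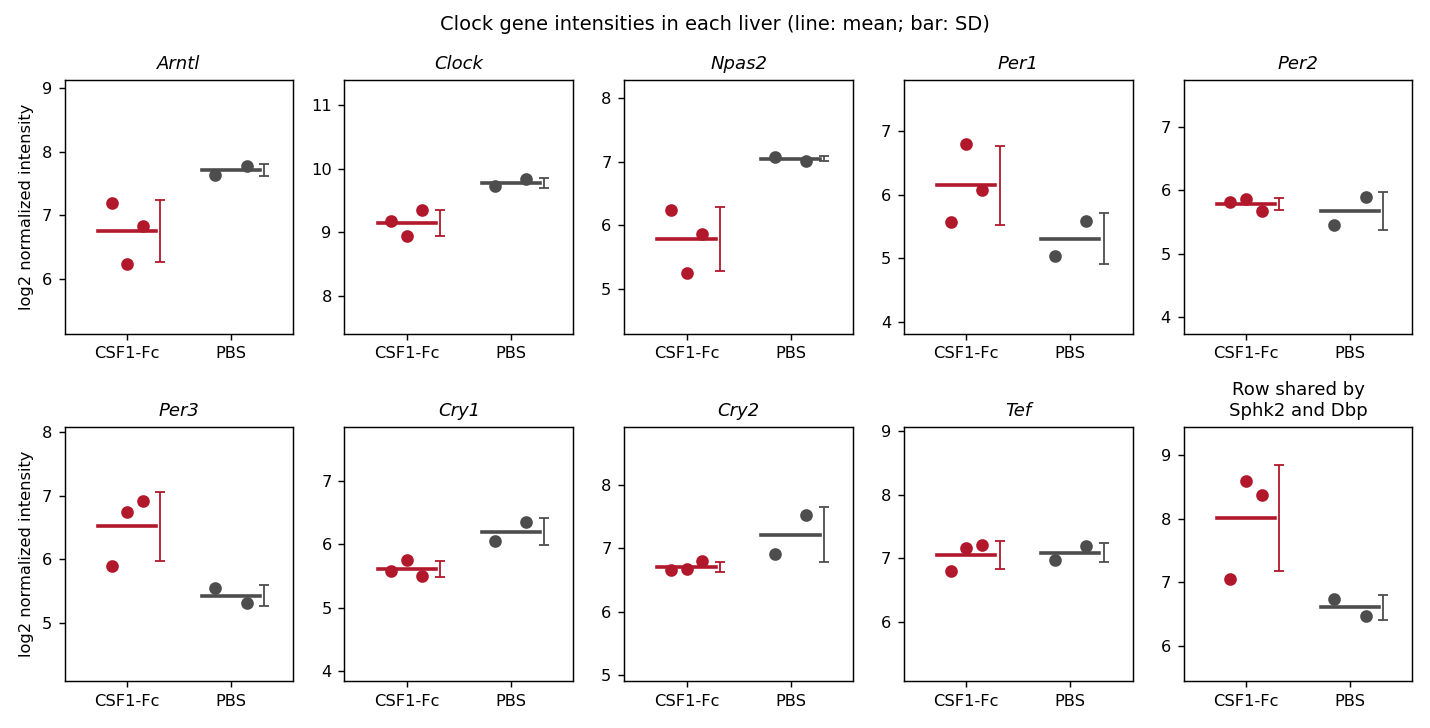
Log2 normalized intensity of each clock gene in every liver, CSF1-Fc left of PBS, with a line for the mean and a bar for the SD, in panels of equal height. The 3 activators, *Cry1* and *Cry2* have every CSF1-Fc liver below both PBS livers, and *Per3* and the row shared by *Sphk2* and *Dbp* have every CSF1-Fc liver above them.

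The 3 period genes, whose proteins carry the cryptochromes into the repressive complex, differed in whether the groups overlapped. *Per3* measured 5.90, 6.75 and 6.92 in CSF1-Fc livers, against 5.55 and 5.32 in PBS livers. Its groups did not overlap, although CSF1-Fc replicate 1 lay much nearer to the PBS livers than the other 2 did. The log2 fold change was 1.09 (SE 0.31, 95% interval 0.34 to 1.84, limma adjusted p = 0.0905). Without CSF1-Fc replicate 1 it was 1.40 and passed (limma adjusted p = 0.0151). Without CSF1-Fc replicate 2 or 3 it was 0.98 or 0.89 and did not pass (limma adjusted p = 0.168 and 0.136). Without PBS replicate 1 or 2 it was 1.21 or 0.98.

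*Per1*, the period gene that also answers quickly to glucocorticoid and cAMP signals, measured 5.56, 6.80 and 6.07 in CSF1-Fc livers, against 5.03 and 5.59 in PBS livers. The lowest CSF1-Fc liver fell just under the higher PBS liver. Its log2 fold change of 0.84 had a wide interval, -0.06 to 1.73 (limma adjusted p = 0.241), and was 0.51 without CSF1-Fc replicate 2 and 0.56 without PBS replicate 1. *Per2* measured 5.81, 5.86 and 5.68 in CSF1-Fc livers, against 5.46 and 5.89 in PBS livers. The CSF1-Fc values lay inside the PBS range, with a log2 fold change of 0.11 (95% interval -0.29 to 0.52, limma adjusted p = 0.754).

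The cryptochromes, the direct inhibitors of the CLOCK and BMAL1 pair, both had lower values in every CSF1-Fc liver without passing the test. *Cry1* measured 5.58, 5.75 and 5.50 in CSF1-Fc livers, against 6.05 and 6.35 in PBS livers. The groups did not overlap, with a gap of 0.30 between them and ranges of 0.25 within CSF1-Fc and 0.29 within PBS, and the log2 fold change was -0.59 (SE 0.15, limma adjusted p = 0.0727). *Cry2* measured 6.66, 6.67 and 6.80 in CSF1-Fc livers, against 6.91 and 7.52 in PBS livers. Here the PBS livers differed from each other more than the CSF1-Fc livers did, and the log2 fold change was -0.50 (SE 0.20, limma adjusted p = 0.197). It was -0.81 without PBS replicate 1 and -0.20 without PBS replicate 2.

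The output factors are transcription activators of the PAR bZIP family, which bind D-boxes. *Tef* measured 6.81, 7.16 and 7.21 in CSF1-Fc livers, against 6.98 and 7.20 in PBS livers. The groups overlapped, and the log2 fold change of -0.03 had an interval of -0.45 to 0.39 (limma adjusted p = 0.948). *Dbp*, a strongly rhythmic message in the liver, was read only by a row that the annotation gives to both *Sphk2* (sphingosine kinase 2) and *Dbp*, neighbouring genes on chromosome 7 that overlap by 741 bases in RefSeq. That row measured 7.05, 8.59 and 8.38 in CSF1-Fc livers, against 6.74 and 6.47 in PBS livers. All 3 CSF1-Fc livers lay above both PBS livers, 2 of them far above and CSF1-Fc replicate 1 near. Its log2 fold change was 1.40 (SE 0.45, 95% interval 0.32 to 2.49, limma adjusted p = 0.123), and it cannot be assigned to either gene.

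The partners of the loops were taken from a list of 11 genes, of which 9 had a row of their own: *Nr1d2*, *Rora*, *Rorb*, *Bhlhe40*, *Bhlhe41*, *Nfil3*, *Hlf*, *Ciart* and *Arntl2*. *Nfil3* and *Hlf* fell after CSF1-Fc, none was higher, and 7 did not pass. Over all genes, 3.95% were lower and 8.34% were higher. The median log2 fold change of the 9 was -0.35. For 6 of them every CSF1-Fc value was under both PBS values, as in 29.3% of all genes. For 1 every value was over both, as in 18.2% of all genes. Among the 6, the gap between the groups was only 0.0099 for *Arntl2*. Without adjustment, at p under 0.05, 5 were lower and 1 was higher, against 14.5% and 13.2% of all genes.

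*Hlf*, the third PAR bZIP factor, measured 6.08, 6.39 and 6.33 in CSF1-Fc livers, against 7.18 and 7.12 in PBS livers. Both groups were tight and well apart. The means were 6.26 ± 0.16 (SD, n = 3) after CSF1-Fc and 7.15 ± 0.04 (SD, n = 2) after PBS, a log2 fold change of -0.88 (SE 0.15, limma adjusted p = 0.0149), or 1.85-fold lower. *Nfil3*, the repressor that competes for D-boxes, measured 7.13, 6.30 and 6.30 in CSF1-Fc livers, against 7.80 and 8.20 in PBS livers. Its log2 fold change was -1.42 (SE 0.29, limma adjusted p = 0.0325), or 2.68-fold lower, with CSF1-Fc replicate 1 nearest to the PBS livers. Thus an activator and a repressor of D-box genes were both lower, while *Tef* had a log2 fold change of -0.03. *Hlf* did not pass without CSF1-Fc replicate 1, PBS replicate 1 or PBS replicate 2 (adjusted p = 0.0585, 0.112 and 0.109), nor *Nfil3* without CSF1-Fc replicate 2 or 3 or PBS replicate 1 or 2 (adjusted p = 0.0662, 0.0646, 0.0983 and 0.214).

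*Ciart*, whose promoter holds the 3 E-boxes printed above, was the one partner with every CSF1-Fc liver above both PBS livers. It measured 5.06, 6.21 and 5.40 in CSF1-Fc livers, against 4.59 and 4.53 in PBS livers, and its log2 fold change of 1.00 (SE 0.33) did not pass (limma adjusted p = 0.128). A second, dimmer row of *Ciart* overlapped between the groups (log2 fold change 0.62, adjusted p = 0.242). *Rora*, one of the ROR activators of *Arntl*, measured 8.81, 8.92 and 9.15 in CSF1-Fc livers, against 9.52 and 9.73 in PBS livers. Its groups did not overlap, and its log2 fold change of -0.66 (SE 0.16) just missed the threshold (limma adjusted p = 0.0538). Without CSF1-Fc replicate 3 *Rora* passed (limma adjusted p = 0.0359), but without CSF1-Fc replicate 1 or 2 it did not (0.177 and 0.105). Its log2 fold change was -0.77 without PBS replicate 1 and -0.56 without PBS replicate 2.

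*Bhlhe40* (DEC1), which binds E-boxes as a repressor, measured 6.85, 7.49 and 7.62 in CSF1-Fc livers, against 8.39 and 7.71 in PBS livers (log2 fold change -0.73, adjusted p = 0.205). The gap between the lower PBS liver and the highest CSF1-Fc liver was small, and the log2 fold change was -0.40 without PBS replicate 1. Its relative *Bhlhe41* (DEC2) overlapped between the groups, with a log2 fold change of 0.02 (adjusted p = 0.980). *Nr1d2* (REV-ERB beta) also overlapped, with a log2 fold change of -0.13 (adjusted p = 0.779). *Arntl2*, a relative of *Arntl*, had a log2 fold change of -0.19 (adjusted p = 0.497) and *Rorb*, a dim row, one of -0.35 (adjusted p = 0.187). *Nr1d1* (REV-ERB alpha) was read only by 2 rows shared with *Thra*, a gene that overlaps it by 1075 bases in RefSeq. Those rows had log2 fold changes of -0.36 (adjusted p = 0.162) and -0.74 (adjusted p = 0.0711), and neither can be assigned to *Nr1d1*.

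**Figure D3:**
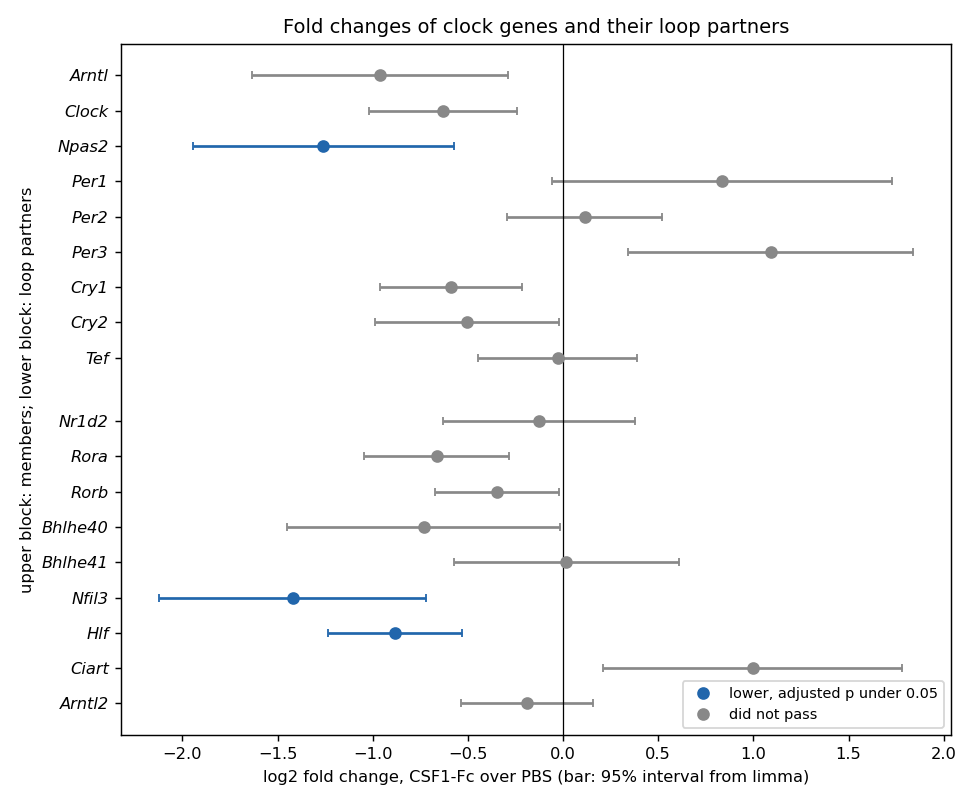
Log2 fold change, CSF1-Fc over PBS, of the 9 members (upper block) and 9 loop partners (lower block), with 95% intervals from limma. *Npas2*, *Nfil3* and *Hlf* passed the test at -1.26, -1.42 and -0.88, and the intervals of *Per1*, *Per2* and *Tef* cross 0.

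The treated livers were not equally far from the controls. CSF1-Fc replicate 2 was the farthest from the PBS mean for 5 of the 9 members, namely *Arntl* (-1.48), *Clock* (-0.84), *Npas2* (-1.80), *Per1* (1.49) and *Per2* (0.19). For *Per2* the PBS livers themselves, at -0.21 and 0.21, lay farther out. CSF1-Fc replicate 1 was the nearest for 4 of the 9, namely *Arntl* (-0.52), *Npas2* (-0.80), *Per1* (0.25) and *Per3* (0.47). The shared row of *Sphk2* and *Dbp* had the same order, 0.44 in CSF1-Fc replicate 1 and 1.98 in CSF1-Fc replicate 2, as did *Ciart*, 0.50 and 1.65. The cryptochromes did not follow it, nor did *Hlf*, *Rora* and *Bhlhe40*, for which CSF1-Fc replicate 1 was the farthest. Among the 9 partners CSF1-Fc replicate 1 was the farthest for 5 and CSF1-Fc replicate 2 for 2. The shares over all genes were not computed for these counts. These are single livers of 1 group, so the order is a description of these mice.

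**Figure D4:**
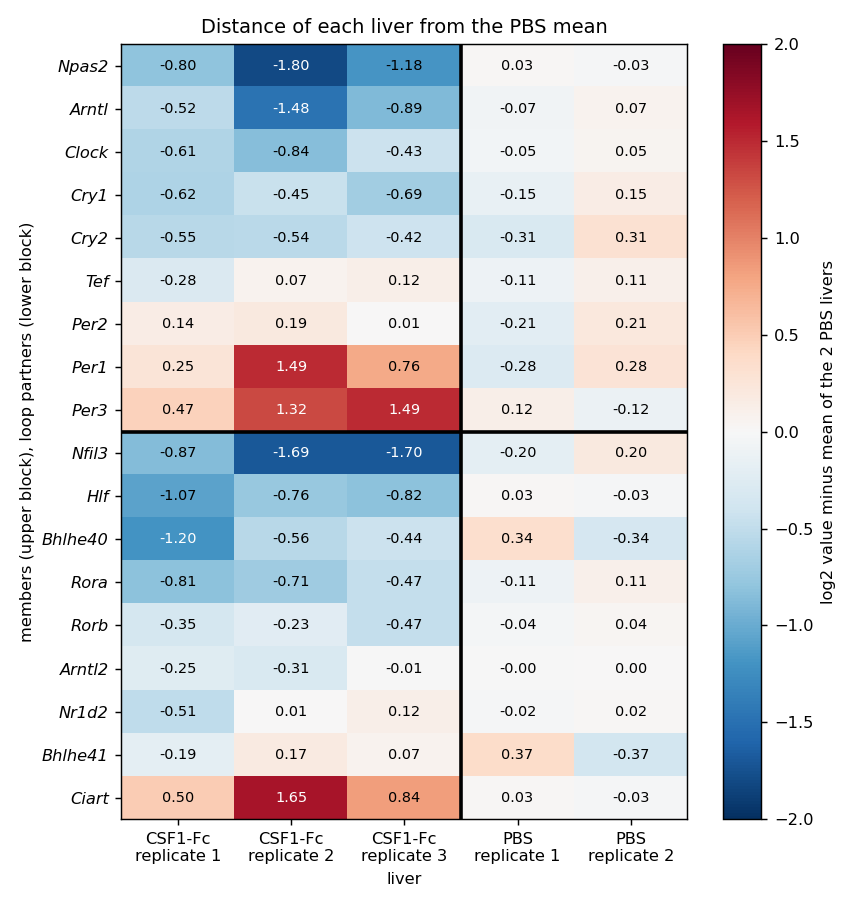
Log2 value of each clock gene and loop partner in each liver minus the mean of the 2 PBS livers, as colour, with CSF1-Fc livers left of PBS livers. *Arntl*, *Npas2*, *Per1* and *Ciart* are farthest from 0 in CSF1-Fc replicate 2, at -1.48, -1.80, 1.49 and 1.65.

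Differences between 2 genes inside 1 array do not move with any scaling of the whole array, so they show unequal change. The pairs were chosen after the values were seen and are given without a test, and the size of a difference between 2 rows has no meaning by itself. The log2 value of *Per3* minus that of *Npas2* was -0.34, 1.50 and 1.05 in CSF1-Fc livers, against -1.53 and -1.70 in PBS livers, a change of 2.35. *Per3* minus *Arntl* changed by 2.05 and *Per1* minus *Arntl* by 1.80, both with every CSF1-Fc liver above the PBS livers. Since *Per3* was above and *Arntl* and *Npas2* were below in all treated livers, the *Per3* pairs had to separate. *Per1* by itself overlapped between the groups. In each of these pairs the treated array nearest to the PBS arrays was CSF1-Fc replicate 1.

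Pairs within a class were set side by side in the same way. *Arntl* minus *Npas2* was 0.95, 0.99 and 0.96 in CSF1-Fc livers, against 0.57 and 0.77 in PBS livers, a change of 0.30 with almost the same value in the 3 treated mice although both genes varied among them. *Npas2* minus *Clock* changed by -0.63, with every CSF1-Fc liver below the PBS livers. *Arntl* minus *Clock* changed by -0.33 and overlapped between the groups. *Per3* minus *Per2* changed by 0.98 and overlapped, while *Per1* minus *Per2* changed by 0.72 with every CSF1-Fc liver above the PBS livers. *Cry1* minus *Cry2* overlapped between the groups and changed by -0.08. Between the 2 PAR bZIP factors with rows of their own, *Tef* minus *Hlf* was 0.73, 0.77 and 0.88 in CSF1-Fc livers, against -0.20 and 0.08 in PBS livers.

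**Figure D5:**
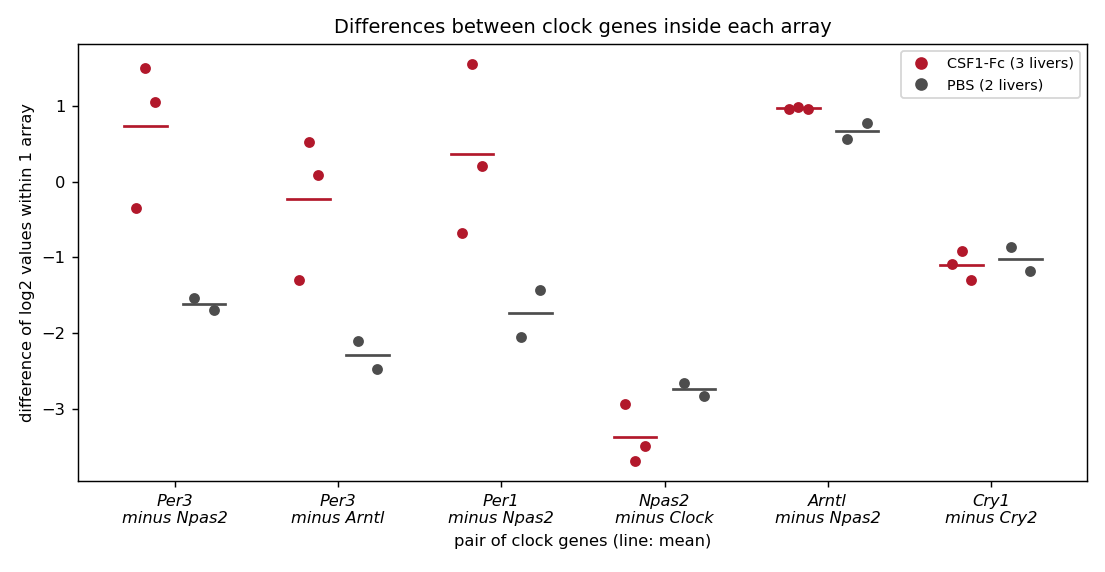
Difference of log2 values between 2 clock genes within each array, with CSF1-Fc livers left of PBS livers and a line for the mean. *Per3* minus *Npas2* differs by 2.35 between the group means, *Arntl* minus *Npas2* by 0.30, and *Cry1* minus *Cry2* overlaps.

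Clock proteins are themselves modified and turned over. Of 21 modifiers and cofactors of clock proteins (kinases, ubiquitin ligases, acetyltransferases and chromatin factors), 19 were measured, with a median log2 fold change of -0.14. Among them 1 was higher and 1 lower, against 8.34% and 3.95% of all genes. *Prkaa2*, which encodes a catalytic subunit of AMP-activated kinase, an enzyme that can mark CRY1 for breakdown, fell (log2 fold change -1.07, SE 0.16, limma adjusted p = 0.0113). The gene of the alternative catalytic subunit, *Prkaa1*, had a log2 fold change of 0.13 (adjusted p = 0.764). *Prkaa2* measured 8.75, 8.62 and 9.01 in CSF1-Fc livers, against 9.96 and 9.78 in PBS livers. *Timeless*, a DNA replication factor, rose (log2 fold change 1.06, SE 0.24, limma adjusted p = 0.0491), and the other 17 did not pass. Neither gene passed without CSF1-Fc replicate 1, PBS replicate 1 or PBS replicate 2, with adjusted p-values of 0.0576, 0.0967 and 0.0676 for *Prkaa2* and of 0.122, 0.160 and 0.271 for *Timeless*.

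Of 16 output genes with clock-driven rhythms in liver, 13 were measured, 4 rose, 4 fell and 5 did not pass. Over all genes, 8.34% rose and 3.95% fell. The median log2 fold change of the 13 was 0.06. *Wee1*, the kinase that holds cells before mitosis, measured 6.99, 6.97 and 7.40 in CSF1-Fc livers, against 5.35 and 5.46 in PBS livers. It rose by 1.71 on the log2 scale (SE 0.17, limma adjusted p = 0.00206). *Nampt*, which sets the rate of NAD synthesis by salvage, rose by 0.98 (SE 0.15, adjusted p = 0.011), though it did not pass without CSF1-Fc replicate 1 (adjusted p = 0.0535) or PBS replicate 2 (adjusted p = 0.0977).

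*Insig2*, which holds back the sterol regulatory proteins, measured 10.29, 10.40 and 10.42 in CSF1-Fc livers, against 11.60 and 11.65 in PBS livers. Its log2 fold change was -1.25 (SE 0.12, limma adjusted p = 0.00178). *Elovl3*, a fatty acid elongase, had a log2 fold change of -1.23 (SE 0.13, adjusted p = 0.00241). The other 4 that passed were named after their values were seen. *Usp2* (0.84) and *Cyp7a1* (0.61) rose, and *Klf9* (-0.87) and *Cyp2b10* (-0.82) fell. Their limma adjusted p-values were 0.0108, 0.0492, 0.0352 and 0.0488, in that order. *Cyp2b10* was a dim row, with 3.80 to 4.31 in CSF1-Fc livers, against 4.75 to 4.86 in PBS livers. Leaving out a mouse gave 1 to 3 higher and 2 to 5 lower outputs, with 1 higher and 2 lower without CSF1-Fc replicate 1 or PBS replicate 2, and 3 higher and 2 lower without CSF1-Fc replicate 2 or PBS replicate 1.

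Hormone and feeding signals also reach the liver clock, and their target genes are given beside it. The share of all genes called was 8.34% higher and 3.95% lower. Of 9 glucocorticoid targets, 3 rose and 1 fell: *Cdkn1a* (log2 fold change 0.96), *Sgk1* (0.96) and *Fkbp5* (0.94) were higher, and *Zbtb16* (-1.78, limma adjusted p = 0.00381) was lower. The median of the 9 was -0.23. Without CSF1-Fc replicate 1 none of them was higher, without PBS replicate 1 or PBS replicate 2 only 1 was, and without CSF1-Fc replicate 2 there were 2 higher and 2 lower. Of 9 measured genes that respond to feeding and fasting, 2 fell, *G6pc* (log2 fold change -2.22, adjusted p = 0.0207) and *Angptl4* (-1.68, adjusted p = 0.0266), and none rose, with a median of -0.85. Of these, 0 passed without CSF1-Fc replicate 1, PBS replicate 1 or PBS replicate 2, and 4 without CSF1-Fc replicate 3. The part of these signals in the clock values was not tested.

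Markers of other cell types moved with the treatment as well, and their counts stand beside 8.34% of all genes higher and 3.95% lower. All 16 macrophage markers rose after CSF1-Fc, with a median log2 fold change of 2.34, and the log2 of their summed intensity was 15.19 to 15.29 in CSF1-Fc livers, against 12.94 to 13.12 in PBS livers. Of 10 measured neutrophil markers, 8 rose (median 1.94), and their log2 summed intensity was 10.56 to 10.75 in CSF1-Fc livers, against 7.73 to 8.31 in PBS livers. The neutrophil count was 5 without CSF1-Fc replicate 1 or PBS replicate 2. Of 9 lymphocyte markers, with a median of 0.43, *Cd79a*, *Cd3g* and *Ms4a1* rose (log2 fold changes of 1.58, 1.45 and 1.15) and 6 did not pass. *Cd3d* and *Cd3e*, which belong to the same receptor complex as *Cd3g*, had log2 fold changes of 0.01 and 0.25, and *Cd4* had one of -0.51 (adjusted p = 0.0763). The sum was 8.22 to 8.42 in CSF1-Fc livers, against 7.68 to 7.69 in PBS livers.

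Of 10 hepatocyte markers, all well above the array median, 0 rose and *Hpd* fell (log2 fold change -0.81, limma adjusted p = 0.0106). Their log2 summed intensity was 15.67 to 15.79 in CSF1-Fc livers, against 15.88 to 15.97 in PBS livers, and their median log2 fold change was -0.29. *Hpd* did not pass without CSF1-Fc replicate 1, PBS replicate 1 or PBS replicate 2 (adjusted p = 0.0591, 0.0798 and 0.111), and 2 of the markers were lower without CSF1-Fc replicate 3. In whole liver, fewer cells of a type and less RNA per cell cannot be told apart, and the part of the cell makeup in the clock values was not tested.

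The genes whose values across the 5 arrays were nearest to *Arntl*, by Euclidean distance of mean-centred log2 values among 18819 other genes, were *Wnt2* (distance 0.23), *Dhrs9* (0.24) and *Llgl2* (0.29). *Wnt2*, a Wnt ligand, measured 5.01, 4.32 and 4.85 in CSF1-Fc livers, against 5.51 and 5.82 in PBS livers, with the lowest value in CSF1-Fc replicate 2 as for *Arntl*. It did not pass the test (limma adjusted p = 0.0622). *Dhrs9*, a retinol and steroid dehydrogenase, and *Llgl2*, a cell polarity protein, were lower (adjusted p = 0.0459 and 0.0222). *Dhrs9* did not pass when any one mouse other than CSF1-Fc replicate 2 was left out (adjusted p of 0.0581 to 0.226), and *Llgl2* did not pass without PBS replicate 1 (0.113) or PBS replicate 2 (0.158). Over 5 arrays such a likeness is a description of shared shape only.

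Over the whole array, 2052 of 35556 rows were higher after CSF1-Fc (5.77%) and 1133 were lower (3.19%). Correlations of log2 values were 0.983 to 0.990 between CSF1-Fc arrays, 0.991 between PBS arrays and 0.960 to 0.973 across the groups. Leaving out each mouse gave 1079 to 2053 higher and 134 to 1768 lower rows, with the fewest without PBS replicate 2. The number of arrays, not a read depth, limits the precision.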

How the data were processed

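Liver RNA of 3 CSF1-Fc and 2 PBS mice was hybridized to 1 array each. The authors deposited 1 normalized, linear intensity per array for each of 35556 rows. The submitters' processing notes name Affymetrix Expression Console 1.1, and their normalization is not given in the labels or methods used here. Probe annotation gave 1 symbol to 21218 rows, several to 1881 and none to 12457. Log2 values, with no pseudocount and no filter, entered limma 3.58.1 under R 4.3.3 (a mean per treatment by lmFit, then eBayes), and p-values were adjusted by Benjamini-Hochberg over all rows. Residual and prior degrees of freedom were 3 and 3.34. The fit was tested on simulated data. The members and lists were chosen with earlier results of these data known. All members and loop partners were named, and in other lists the 4 largest changes past the threshold, plus the 3 genes nearest to *Arntl*. *Prkaa1*, *Cd3d*, *Cd3e* and *Cd4* were named after their values were seen. Alternatives were 3 scalings, filters, moderation, array weights (statmod 1.5.0), a replicate block and leaving out each mouse. RNA was prepared with Trizol per the labels and with RNA Bee per the methods. The labels call the arrays separate mouse livers. A further gene of the loop partner list is not reported here.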

Additional observations from a re-analysis of the deposited data

Results flagged for a closer look

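The row shared by *Sphk2* and *Dbp* lies outside the counts above, because it carries more than 1 symbol, and it drew attention as a signal in such data. Its log2 fold change was 1.40, with values of 7.05, 8.59 and 8.38 in CSF1-Fc livers, against 6.74 and 6.47 in PBS livers. It did not pass the test over all rows (limma adjusted p = 0.123).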

How the results depend on the processing

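The main settings called 0 members higher and 1 lower (*Npas2*), and 0 loop partners higher and 2 lower (*Nfil3*, *Hlf*). One member, *Per3*, was higher with centring on liver secreted proteins, on rows of at least median brightness, on rows with 1 symbol and with the mean over a gene's rows (1 in each), and 0 to 1 was higher when a mouse was left out. Lower members numbered 3 on bright rows, 4 on rows with 1 symbol, 3 with array weights, 4 with the mean over rows, 0 without moderation and 0 to 1 with a mouse left out. Fewer rows tested is part of the construction of the filters, and otherwise the cause was not tested. Higher partners numbered 1 (*Ciart*) on rows with 1 symbol and with the mean over rows. Lower partners numbered 1 with secreted protein centring (*Hlf* lost, adjusted p = 0.11), 0 without moderation, 4 with array weights and 0 to 2 with a mouse left out. *Npas2* passed in 10 of 15 alternatives (adjusted p of 0.00663 to 0.253), and *Nfil3* and *Hlf* in 9 of 15 each.

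Rows called higher numbered 550 without moderation, 3416 with array weights and 1079 to 2053 with a mouse left out. Rows called lower numbered 397 with secreted protein centring, 1772 on rows with 1 symbol, 127 without moderation, 3805 with array weights and 134 to 1768 with a mouse left out. Centring on secreted proteins moved the median log2 fold change of all rows to 0.19, against -0.08, and 87.4% of calls were then higher, against 47.3% with array weights and 81.2% without moderation. Under that centring *Tef* (0.24), *Nr1d2* (0.14) and *Arntl2* (0.077), none of which passed, changed sign. *Bhlhe41* was -0.14 with array weights. With a mouse left out, *Per2* ran from -0.10 to 0.33, *Tef* from -0.14 to 0.10, *Nr1d2* from -0.25 to 0.064 and *Bhlhe41* from -0.35 to 0.39.

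Deviations of same-numbered livers from their group means correlated at -0.07 and -0.25. With 2 PBS livers the PBS deviations are mirror images of each other, so these values cannot show whether replicate numbers pair the mice. With the replicate number as a block, 0 members and 0 partners were lower, *Npas2* had a log2 fold change of -1.30 (adjusted p = 0.0548), *Nfil3* and *Hlf* had adjusted p-values of 0.0848 and 0.056, *Bhlhe41* was -0.0089, and 1577 rows were higher and 927 lower.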
